A study of Mus musculus with 6 samples.

Results

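The genes described here are those of the cytokines IL-3 (Il3), GM-CSF (Csf2) and M-CSF (Csf1), of the shared receptor chain for IL-3 and GM-CSF (Csf2rb), and of the hydroxysteroid dehydrogenase Akr1c18. They are 5 of 22180 genes measured in mouse splenic CD4+ T cells. Members were named by gene symbol, and each is represented by the probe set that the platform annotation assigns to that symbol alone and that had the highest mean over the 6 arrays. Akr1c18 was chosen for its fall in these data, so its differences are given as a description, with no test, and support nothing. The other 4 were named for their biology, with earlier results of these data known.

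CD4+ T cells were isolated from mouse spleen with magnetic beads, cultured in serum-containing medium, and activated for 12 hours by anti-CD3 and anti-CD28 antibodies at 1 µg/ml. All groups shared this stimulation and received conditioned medium. PlGFCM was medium from clones of HEK-293, a line of human embryonic kidney cells. These clones overexpressed PlGF2, an isoform of placental growth factor, which belongs to the VEGF family. IL6+ConCM was control conditioned medium with IL-6 at 20 ng/ml, and ConCM was control conditioned medium alone. Each group held 2 replicate samples of total RNA, 1 array each. The sources used here do not give strain, sex and age of the mice, the number of HEK-293 clones, or whether cells of several mice were pooled. A conditioned medium also carries whatever else its producer cells release, which these groups do not separate from PlGF.

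IL-3 and GM-CSF are made by activated T cells and act on blood cell precursors and myeloid cells. Each binds its own alpha chain, Il3ra or Csf2ra, and signals through the common beta chain Csf2rb to JAK2 and STAT5. The mouse has a second beta chain, Csf2rb2, that serves IL-3. M-CSF uses a different receptor, Csf1r, a tyrosine kinase of macrophages. Akr1c18 encodes the enzyme that converts progesterone to its 20-alpha-hydroxy form, and the induction of this enzyme activity in lymphoid cells was an early assay for IL-3.

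The arrays were much alike. Their median log2 level ran from 5.58 to 5.65, and Pearson's r across genes was 0.994 to 0.995 for arrays of the same group and 0.993 to 0.995 for arrays of different groups (genes are not independent replicates). The T cell genes Cd3e and Cd4 had log2 levels of 11.8 to 12.2 and 11.1 to 11.4 on the arrays, and all 7 measured CD4 T cell markers lay at 9.22 or above. PlGFCM replicate 2 stood apart in sex-linked transcripts: Xist was at 8.38 there and at 3.58 to 3.95 on the other 5 arrays, and all 3 Y-linked genes examined were lowest there. Differences of PlGFCM from ConCM that moved by over 1.5 times, turned their sign or lost their call without it are given both ways. The deposited table carries no detection call, so whether a low probe set lay above background was not tested, and levels of different probe sets are not compared. This limit holds for Il3 and, among the relatives of Akr1c18, for Akr1c12, Akr1c6 and Akr1c20. It also holds for Akr1c18 in PlGFCM, where its levels of 5.24 and 4.92 lay below the median of every array. Nothing in the labels states that the replicates were separate mice or cultures. The p-values then reflect the spread of these samples alone. In PlGFCM that spread includes the difference in sex-linked transcripts, whose source the labels do not give. In the other groups the spread may be technical.

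The promoters of Akr1c18, Il3 and Csf2 are shown because the question was whether the enzyme gene follows the adjacent cytokine genes. The windows are from RefSeq on build GRCm38.p6, each on the minus strand, from 250 bases before the gene's start to 50 after it, and 4 of the 5 members were matched in that table. They lie at chr13:4150597-4150896 for Akr1c18, chr11:54267230-54267529 for Il3 and chr11:54249850-54250149 for Csf2. Capitals mark matches, on either strand, to TTCNNNGAA (STAT factors), TGANTCA (AP-1), GGAAA (the NFAT and ETS core) and TGTGGT (RUNX).
Akr1c18: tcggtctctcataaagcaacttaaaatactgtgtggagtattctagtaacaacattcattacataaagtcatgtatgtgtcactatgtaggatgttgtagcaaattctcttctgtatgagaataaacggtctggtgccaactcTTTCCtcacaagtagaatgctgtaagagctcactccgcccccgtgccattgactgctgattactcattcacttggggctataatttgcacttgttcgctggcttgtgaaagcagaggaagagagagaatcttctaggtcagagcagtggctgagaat
Il3: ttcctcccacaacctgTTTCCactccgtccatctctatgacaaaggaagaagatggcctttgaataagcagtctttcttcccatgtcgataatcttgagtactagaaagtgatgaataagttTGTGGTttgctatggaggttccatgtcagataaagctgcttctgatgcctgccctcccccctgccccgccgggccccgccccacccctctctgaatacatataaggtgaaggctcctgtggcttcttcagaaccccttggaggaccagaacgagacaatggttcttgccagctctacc
Csf2: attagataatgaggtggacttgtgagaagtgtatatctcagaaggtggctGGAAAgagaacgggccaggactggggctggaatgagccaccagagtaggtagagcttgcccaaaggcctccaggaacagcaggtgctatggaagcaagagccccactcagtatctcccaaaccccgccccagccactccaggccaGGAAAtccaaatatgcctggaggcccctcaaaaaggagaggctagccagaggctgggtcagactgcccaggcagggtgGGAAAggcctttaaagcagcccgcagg
Each window held GGAAA, 1 match for Akr1c18, 1 for Il3 and 3 for Csf2, as 61.3% of the 32851 windows did. Il3 alone of the 3 held TGTGGT, found in 16.8% of all windows. None held TTCNNNGAA, found in 8.30%, or TGANTCA, found in 7.81%, which says only that these letters are not in these windows. No base belonged to matches of more than 1 motif. A match is a description of the sequence and not a bound site.

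Akr1c18 was lowest in PlGFCM, intermediate in IL6+ConCM and highest in ConCM, while Il3, Csf2, Csf1 and Csf2rb passed the test in none of the 3 comparisons. Akr1c18 (probe set 17290263, chromosome 13) had log2 levels of 5.24 and 4.92 in PlGFCM, 5.92 and 5.75 in IL6+ConCM, and 6.22 and 6.45 in ConCM. No array of 1 group overlapped with those of another. The group means were 5.08 ± 0.23 (SD, n = 2) in PlGFCM, 5.84 ± 0.12 in IL6+ConCM and 6.33 ± 0.16 in ConCM. The gap between neighbours in this order exceeded the SD of either neighbour. In bulk samples of this kind, fewer cells that express a gene and less RNA per cell cannot be told apart.

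The log2 difference of Akr1c18 was -1.25 ± 0.15 (SE) between PlGFCM and ConCM, a ratio of 0.419. Between IL6+ConCM and ConCM it was -0.50 ± 0.15, a ratio of 0.709. PlGFCM minus IL6+ConCM gave -0.76 ± 0.15. These comparisons are not independent, since each pair of them shares the arrays of 1 group. Without PlGFCM replicate 2, the lower of the PlGFCM arrays, the difference from ConCM was -1.09 and that from IL6+ConCM -0.60. Of all 22180 genes, 7.36% had their 3 groups apart in any order, 1.71% had them apart in the order that Akr1c18 showed, and 0.0812% fell between PlGFCM and ConCM by limma with Benjamini-Hochberg adjusted p under 0.05. These shares are context for a gene that was chosen by this contrast, and nothing is read from them.

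**Figure D1:**
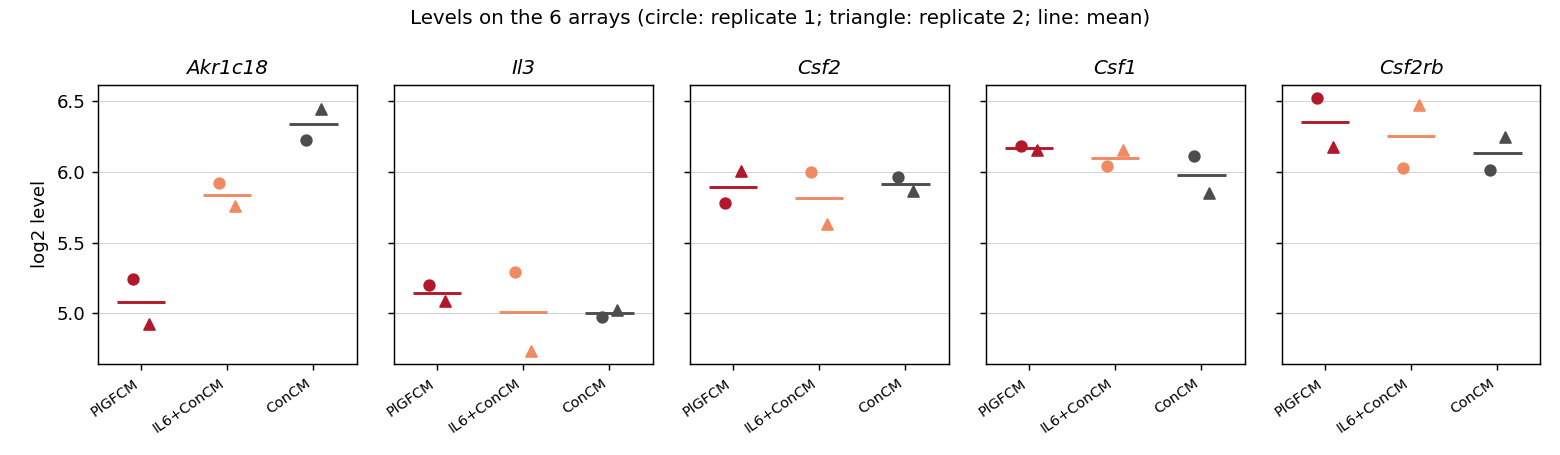
Log2 level (vertical axis) of Akr1c18, Il3, Csf2, Csf1 and Csf2rb on the 6 arrays, by group (horizontal axis), with replicate 1 as a circle, replicate 2 as a triangle and the group mean as a line. The groups of Akr1c18 lie apart with means of 5.08 in PlGFCM, 5.84 in IL6+ConCM and 6.33 in ConCM, while none of the other 4 genes has its 3 groups apart.

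Il3, the gene of IL-3, did not have the order of Akr1c18. Its log2 levels (probe set 17262823, chromosome 11) were 5.20 and 5.09 in PlGFCM, 5.29 and 4.73 in IL6+ConCM, and 4.98 and 5.02 in ConCM. The lowest and the highest of the 6 values were those of the IL6+ConCM arrays, so the arrays of that group spanned the whole range. The PlGFCM arrays both lay above the ConCM arrays, as the arrays of 17.3% of all genes did. The log2 difference was 0.15 ± 0.17 (SE) for PlGFCM minus ConCM, with a 95% confidence interval of -0.24 to 0.53 and a limma adjusted p of 0.879. For IL6+ConCM minus ConCM it was 0.01 ± 0.17, with an interval of -0.37 to 0.40 and a limma adjusted p of 1.000. Neither passed, and these intervals, which are not adjusted for the number of genes, allow changes of that size in either direction.

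Csf2, the gene of GM-CSF, is the neighbour of Il3 in the RefSeq gene table, with no protein-coding gene between them. Its log2 levels (probe set 17262816) were 5.777 and 6.004 in PlGFCM, 6.001 and 5.628 in IL6+ConCM, and 5.965 and 5.861 in ConCM. Every pair of groups overlapped. The log2 difference was -0.02 ± 0.15 (SE) for PlGFCM minus ConCM, with a 95% interval of -0.35 to 0.30 (limma adjusted p = 0.982). For IL6+ConCM minus ConCM it was -0.10 ± 0.15, with an interval of -0.42 to 0.23 (limma adjusted p = 0.998). A second Csf2 probe set, 17249636, had log2 levels of 4.46 and 4.52 in PlGFCM, 4.57 and 4.52 in IL6+ConCM, and 4.47 and 4.54 in ConCM. It differed by -0.01 between PlGFCM and ConCM and by 0.05 between IL6+ConCM and ConCM.

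Csf1, the gene of M-CSF (probe set 17409075, chromosome 3), had log2 levels of 6.18 and 6.15 in PlGFCM, 6.04 and 6.16 in IL6+ConCM, and 6.11 and 5.85 in ConCM. The PlGFCM arrays were close to each other and above the ConCM arrays, which differed more among themselves. The log2 difference of 0.19 ± 0.13 (SE) for PlGFCM minus ConCM did not pass (95% interval -0.09 to 0.46, limma adjusted p = 0.735). IL6+ConCM minus ConCM gave 0.12 ± 0.13 (limma adjusted p = 0.997).

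Csf2rb, the beta chain through which IL-3, IL-5 and GM-CSF signal (probe set 17312716, chromosome 15), had log2 levels of 6.52 and 6.18 in PlGFCM, 6.03 and 6.47 in IL6+ConCM, and 6.02 and 6.25 in ConCM. One array of each treated group lay above both ConCM arrays and the other did not, so the groups overlapped. The log2 difference was 0.22 ± 0.17 (SE) for PlGFCM minus ConCM (95% interval -0.15 to 0.59, limma adjusted p = 0.774) and 0.12 ± 0.17 for IL6+ConCM minus ConCM (limma adjusted p = 0.997). Without PlGFCM replicate 2 the first became 0.39 (limma adjusted p = 0.530), and those of Il3, Csf2 and Csf1 became 0.20, -0.14 and 0.20.

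Among the 4 members other than Akr1c18, the groups of PlGFCM and ConCM did not overlap for Il3 and Csf1, which were higher in PlGFCM. Such groups were found for 38.2% of all genes. For IL6+ConCM and ConCM, and for PlGFCM and IL6+ConCM, the groups of each of the 4 overlapped, where 34.1% and 30.1% of all genes had groups that did not. Akr1c18 was chosen for its fall and is left out of these counts. None of the 4 tested members passed in any comparison, where 0.433% of all genes passed between PlGFCM and ConCM, 0.113% between IL6+ConCM and ConCM, and 0.0316% between PlGFCM and IL6+ConCM. Nor did any of the 4 reach an unadjusted p under 0.05, which 8.74%, 5.62% and 4.37% of all genes did in these comparisons. The direct comparison of PlGFCM with IL6+ConCM gave log2 differences of 0.13 for Il3, 0.08 for Csf2, 0.07 for Csf1 and 0.10 for Csf2rb, each with a limma adjusted p of 0.998. Without PlGFCM replicate 2 these were 0.19, -0.04, 0.08 and 0.27.

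The profiles over the arrays were set side by side after each gene was centred on its mean over the 6 arrays. The root mean square difference from Akr1c18 was 0.59 log2 units for Il3, 0.55 for Csf2, 0.62 for Csf1 and 0.63 for Csf2rb. A gene with the same level on every array would differ from Akr1c18 by 0.53, and each of the 4 differed from it by more. Of the 22179 other genes, 12783 were nearer to Akr1c18 than Csf2, the nearest of the 4, and 18248 were nearer than Il3. These distances depend on the fall for which Akr1c18 was chosen, so they are a description and nothing is read from them. The order of the replicates within groups was also looked at. The array with the higher Akr1c18 level was also the one with the higher Il3 level in each of the 3 groups, an order that 9.57% of the other genes shared. Csf2rb had this order in 2 of the 3 groups, and Csf2 and Csf1 in 1 each. The gaps between replicates behind this order were 0.11, 0.56 and 0.05 log2 units for Il3 in PlGFCM, IL6+ConCM and ConCM, against 0.32, 0.17 and 0.22 for Akr1c18. In ConCM the match of Il3 rests on the gap of 0.05. With 4 genes looked at, nothing is read from this order.

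**Figure D2:**
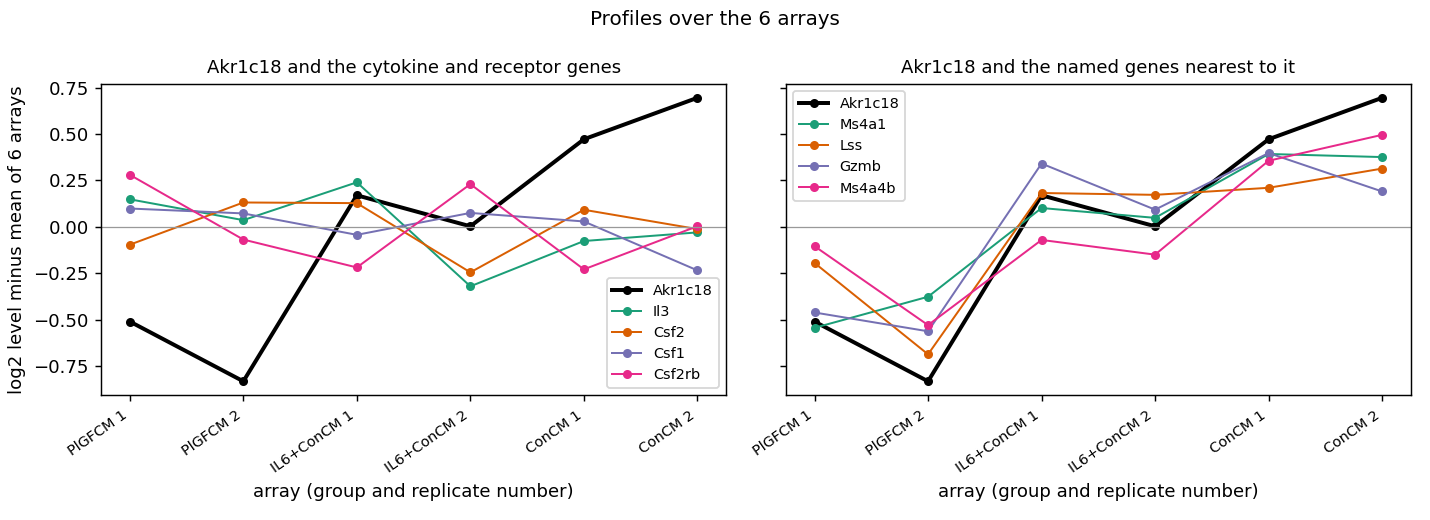
Log2 level minus the gene's mean over the 6 arrays (vertical axis) on each array (horizontal axis), on the left for Akr1c18 with Il3, Csf2, Csf1 and Csf2rb and on the right for Akr1c18 with the 4 named genes nearest to it. On the left the cytokine and receptor genes stay around 0 where Akr1c18 spans 1.53 log2 units, and on the right both PlGFCM arrays are the lowest for Akr1c18, Ms4a1, Lss and Gzmb, while for Ms4a4b an IL6+ConCM array lies below a PlGFCM array.

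The genes whose profile was nearest to that of Akr1c18 over the 6 arrays were Ms4a1, the B cell antigen CD20, Lss, lanosterol synthase of the cholesterol pathway, Gzmb, the cytotoxic protease granzyme B, Ms4a4b, a membrane protein of T cells, and 1 predicted gene model. Their root mean square differences from Akr1c18 ran from 0.23 to 0.26 log2 units. These genes were picked for their likeness to a chosen gene, so their values are a description. Between PlGFCM and ConCM, Lss (log2 difference -0.70, limma adjusted p = 0.0573) and the predicted model did not pass. Without PlGFCM replicate 2 the difference of Lss was -0.46, and none of Ms4a1, Gzmb and Ms4a4b passed. With no intensity trend Ms4a1, Gzmb and Ms4a4b did not pass either. Ms4a1 had log2 levels of 5.47 and 5.64 in PlGFCM, 6.12 and 6.07 in IL6+ConCM, and 6.41 and 6.39 in ConCM. Its 3 groups lay apart in the order of Akr1c18, the gene it was picked to resemble, as those of 1.71% of all genes did. Lss had 7.95 and 7.46 in PlGFCM, 8.33 and 8.32 in IL6+ConCM, and 8.36 and 8.46 in ConCM, and Gzmb had 8.23 and 8.13 in PlGFCM, 9.04 and 8.79 in IL6+ConCM, and 9.09 and 8.89 in ConCM. For Lss and Gzmb the IL6+ConCM arrays lay close to the ConCM arrays. Ms4a4b had 8.41 and 7.99 in PlGFCM, 8.45 and 8.37 in IL6+ConCM, and 8.87 and 9.01 in ConCM, so its PlGFCM and IL6+ConCM groups overlapped.

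A marker of B cells was thus the gene nearest to Akr1c18, and the other markers of that cell type are given beside it. Of 7 measured B cell markers, Ms4a1 and Fcer2a, the low-affinity IgE receptor, passed as lower in PlGFCM than in ConCM, and the remaining 5 did not pass, where 0.0812% of all genes fell. Ms4a1 was picked for its likeness to a gene chosen for its fall, and Fcer2a was named after its values were seen. Counts of this list that include them are a description, and nothing is read from them. An unadjusted p under 0.05 was found for 4 of the 7, Ms4a1 and Fcer2a on the lower side and Cd79b and Pax5 on the higher, where 8.74% of all genes had one. Fcer2a had log2 levels of 6.45 and 6.72 in PlGFCM, 6.90 and 7.02 in IL6+ConCM, and 7.29 and 7.61 in ConCM. Its 3 groups were again apart in the order of Akr1c18, as those of 1.71% of all genes were. Neither Ms4a1 nor Fcer2a passed without PlGFCM replicate 1, PlGFCM replicate 2 or ConCM replicate 2, and Ms4a1 did not pass without ConCM replicate 1 either. With no intensity trend both calls were lost too. Cd79a, Cd79b, Pax5 and Blk had positive log2 differences of 0.22, 0.33, 0.31 and 0.19. The summed linear level of the 7 markers was 719 to 723 on PlGFCM arrays, 715 to 732 on IL6+ConCM arrays and 739 to 780 on ConCM arrays, and none was at 0. Among 8 markers of CD8 T and NK cells, Eomes alone passed, at -1.34 in PlGFCM and -1.44 in IL6+ConCM against ConCM. It did not pass for PlGFCM without PlGFCM replicate 1 or 2, nor for IL6+ConCM without IL6+ConCM replicate 2. Neither call of Eomes held with no intensity trend. Prf1, the pore-forming protein perforin, lay on the other side, at 0.34 in PlGFCM (limma adjusted p = 0.283) and 0.33 in IL6+ConCM (limma adjusted p = 0.563) against ConCM. Its groups did not overlap, as those of 38.2% and 34.1% of all genes did not. Eomes and Prf1 were the 2 of the 8 with an unadjusted p under 0.05 in each of these comparisons. Between PlGFCM and IL6+ConCM 0 of the 8 had one. Of all genes, 8.74% had one for PlGFCM minus ConCM, 5.62% for IL6+ConCM minus ConCM and 4.37% for PlGFCM minus IL6+ConCM. The summed linear level of these 8 was 754 to 819 in PlGFCM, 739 to 870 in IL6+ConCM and 888 to 1024 in ConCM. This sum includes Eomes, with log2 levels of 6.48 and 6.32 in PlGFCM, 6.51 and 6.09 in IL6+ConCM, and 7.99 and 7.50 in ConCM. The other 7 markers did not pass, and no sum was taken without Eomes, so no fall of the other 7 is read from these sums. Cd8a was between 5.47 and 6.25 on the arrays, Cd8b1 between 7.81 and 8.31, and Nkg7 between 7.25 and 7.54. The part of other cell types in the level of Akr1c18 was not tested.

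Basophils and mast cells respond to IL-3, and their 8 markers did not pass in any comparison by limma. Between PlGFCM and IL6+ConCM, 1 of 8 had an unadjusted p under 0.05, where 4.37% of all genes had one. In the other comparisons 0 did. Mcpt8, a basophil protease, was at log2 levels of 4.11 to 4.60 and Fcer1a, the alpha chain of the high-affinity IgE receptor, at 2.547 to 2.998 over the 6 arrays. The summed linear level of the 8 was 225 to 226 in PlGFCM, 213 to 225 in IL6+ConCM and 206 to 219 in ConCM. Of 9 markers of macrophages, monocytes and neutrophils none passed. An unadjusted p under 0.05 was found for 3, 0 and 3 for PlGFCM minus ConCM, IL6+ConCM minus ConCM and PlGFCM minus IL6+ConCM. The shares of all genes at that threshold were 8.74%, 5.62% and 4.37%. The 3 between PlGFCM and ConCM were higher in PlGFCM, Cd14 by 0.67 (limma adjusted p = 0.0806), Adgre1 by 0.38 (limma adjusted p = 0.334) and Mpeg1 by 0.30 (limma adjusted p = 0.416). Csf1r was between 6.35 and 6.49, and the summed linear level of the 9 was 814 to 880 in PlGFCM, 746 to 768 in IL6+ConCM and 738 to 746 in ConCM. None of 5 dendritic cell markers passed or had an unadjusted p under 0.05, with sums of 292 to 324 in PlGFCM, 254 to 315 in IL6+ConCM and 274 to 318 in ConCM.

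The other ligand and the receptors of the IL-3 family did not pass either. Of 8 measured genes 0 passed in limma in any of the 3 comparisons, and the median log2 difference was 0.06 for PlGFCM minus ConCM, 0.03 for IL6+ConCM minus ConCM and 0.04 for PlGFCM minus IL6+ConCM, beside medians of -0.01, -0.01 and 0.00 over all genes tested. The 1 gene of the list with an unadjusted p under 0.05, in the second and last of these, was Il5ra, the alpha chain for IL-5. Of all genes, 5.62% and 4.37% had one in these comparisons. Il5ra had log2 levels of 5.21 and 5.18 in PlGFCM, 4.88 and 4.92 in IL6+ConCM, and 5.18 and 5.35 in ConCM. Its IL6+ConCM arrays were the lowest, at a log2 difference of -0.36 ± 0.13 (SE) from ConCM (limma adjusted p = 0.725). Il5, which encodes another cytokine of the family, differed by 0.07 between PlGFCM and ConCM and by 0.06 between IL6+ConCM and ConCM. The alpha chains Il3ra and Csf2ra differed by 0.06 and -0.14 between PlGFCM and ConCM, and Il3ra by 0.00 without PlGFCM replicate 2. Csf2rb2, the second beta chain, is the neighbour of Csf2rb and related to it, so the probe sets of this pair may bind related transcripts and their assignment is uncertain. Csf2rb2 had log2 levels of 7.29 and 6.81 in PlGFCM, 7.17 and 6.91 in IL6+ConCM, and 6.92 and 6.93 in ConCM, a log2 difference of 0.12 ± 0.15 between PlGFCM and ConCM that was 0.36 without PlGFCM replicate 2 (limma adjusted p = 0.441).

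**Figure D3:**
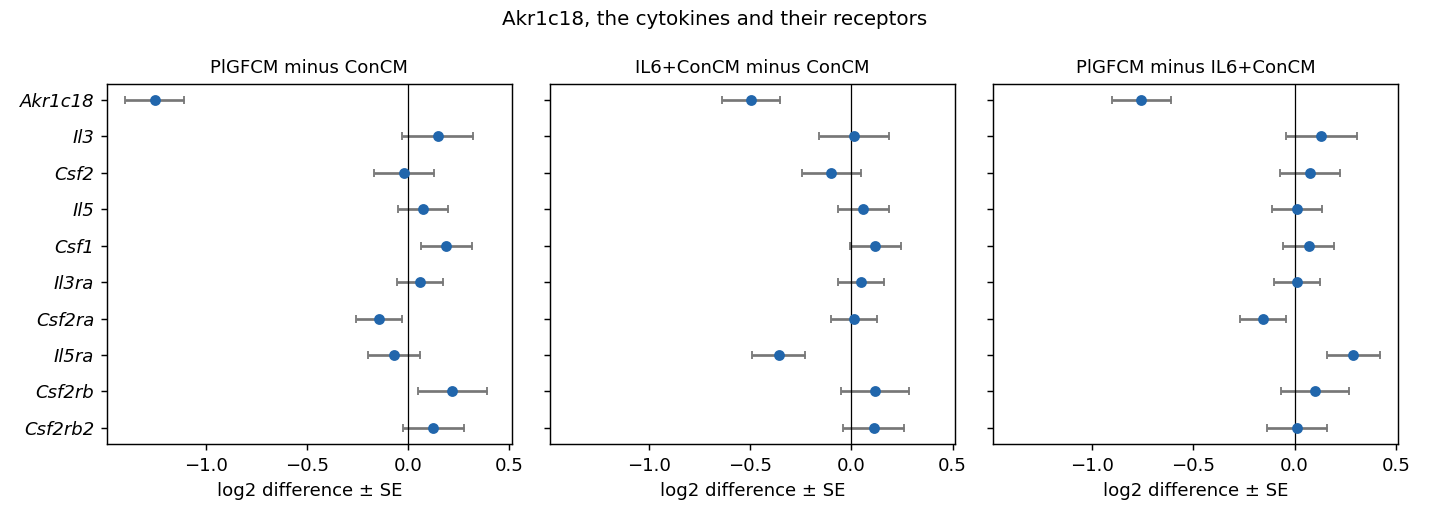
Log2 difference with its SE (horizontal axis) of Akr1c18, the cytokines Il3, Csf2, Il5 and Csf1 and the receptor chains (vertical axis), for PlGFCM minus ConCM, IL6+ConCM minus ConCM and PlGFCM minus IL6+ConCM. Akr1c18 lies at -1.25, -0.50 and -0.76, and all other genes lie between -0.36 and 0.29.

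Akr1c18 sits in a cluster of related aldo-keto reductases on chromosome 13, between Akr1c14 and Akr1c13, and these enzymes reduce steroids and other carbonyls. Akr1c13 had no probe set annotated to it alone and was not measured. None of the other 7 measured genes of the family passed in any comparison by limma. An unadjusted p under 0.05 was reached by Akr1c12 between PlGFCM and ConCM and by Akr1c6 in both comparisons with IL6+ConCM. Of all genes, 8.74% had one for PlGFCM minus ConCM, 5.62% for IL6+ConCM minus ConCM and 4.37% for PlGFCM minus IL6+ConCM. Akr1c12 had log2 levels of 3.57 and 3.10 in PlGFCM, 3.59 and 3.57 in IL6+ConCM, and 3.79 and 3.96 in ConCM, with a log2 difference of -0.54 ± 0.18 (SE) for PlGFCM minus ConCM (limma adjusted p = 0.353). Its 3 groups lay apart in the order of Akr1c18, as those of 1.71% of all genes did. Its upper PlGFCM array and lower IL6+ConCM array were, though, equal to 2 decimals. Without PlGFCM replicate 2 the difference was -0.31 (limma adjusted p = 0.587). Akr1c6 differed by -0.11 between PlGFCM and ConCM and by 0.49 ± 0.17 between IL6+ConCM and ConCM (limma adjusted p = 0.695), with the IL6+ConCM arrays highest. Akr1c14, the neighbour of Akr1c18, differed by 0.04 and 0.12 in these comparisons, and Akr1c19 by 0.00 and 0.14. Akr1c20 differed by -0.45 and -0.35 and Akr1c21 by 0.19 and -0.04, with gaps between replicates of up to 0.88 log2 units for Akr1c20. Without PlGFCM replicate 2 the differences between PlGFCM and ConCM were -0.09 for Akr1c20, 0.05 for Akr1c21, 0.01 for Akr1c6 and -0.01 for Akr1c19. Akr1cl, which lies on another chromosome, differed by -0.11 and -0.13. The members of this family are similar in sequence, so their probe sets can bind related transcripts and the assignment of each, Akr1c18 included, is uncertain to that extent.

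**Figure D4:**
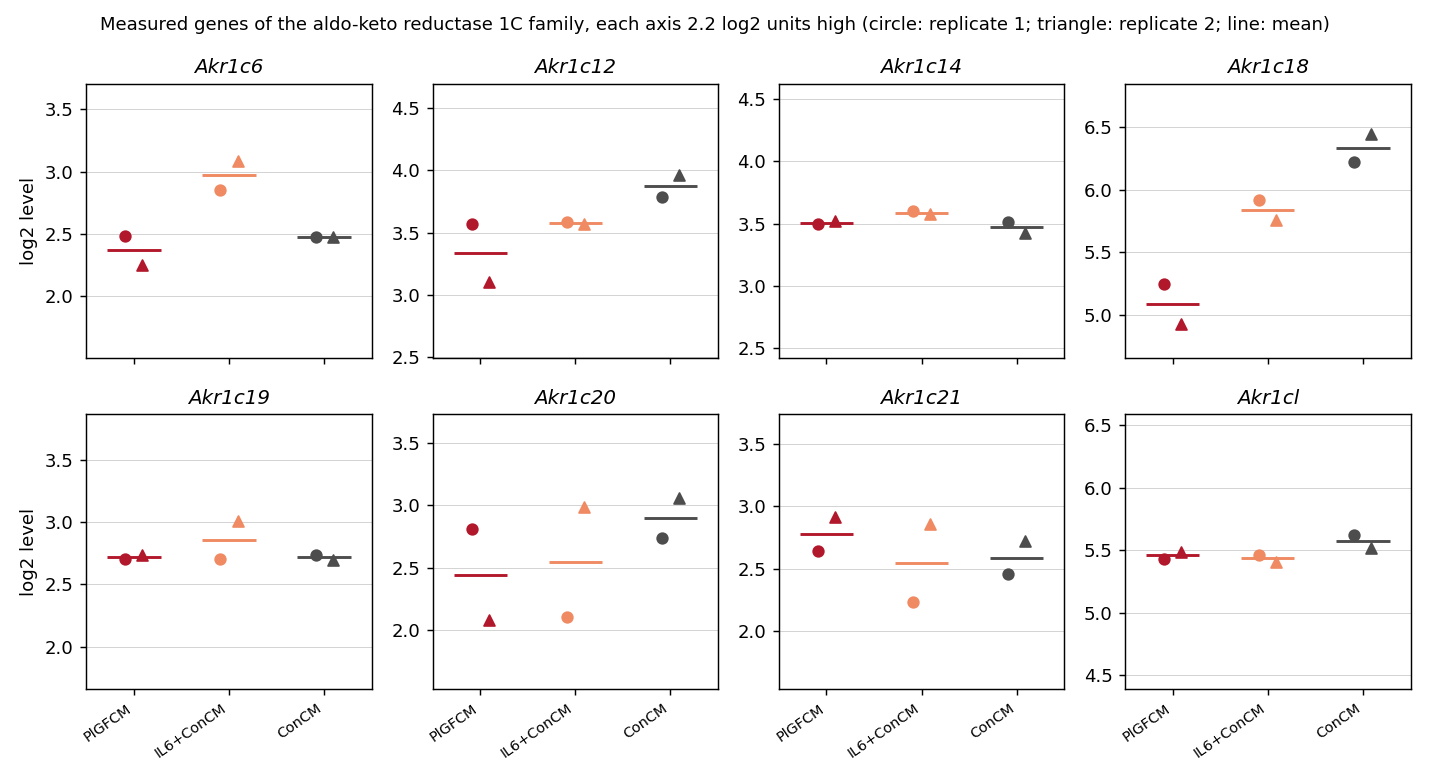
Log2 level (vertical axis, the same height of 2.2 log2 units in each panel) of the 8 measured genes of the aldo-keto reductase 1C family by group (horizontal axis), with replicate 1 as a circle, replicate 2 as a triangle and the group mean as a line. Akr1c18 and Akr1c12 have their 3 groups apart with PlGFCM lowest and ConCM highest, narrowly so for Akr1c12, and Akr1c14 lies between 3.42 and 3.60 on all arrays.

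Genes that carry or damp the signal of the IL-3 receptor were examined as a list of 17 measured genes of JAK and STAT5 signalling. Socs3, a feedback inhibitor of cytokine signalling, was the 1 that rose between PlGFCM and ConCM, by 0.49 ± 0.09 (SE; limma adjusted p = 0.0442), and none passed in the other comparisons. Before adjustment, 7 genes of the list had p under 0.05 between PlGFCM and ConCM, 4 between IL6+ConCM and ConCM, and 3 between PlGFCM and IL6+ConCM, where 8.74%, 5.62% and 4.37% of all genes did. Of all genes, 0.352% rose between PlGFCM and ConCM. Socs3 had log2 levels of 9.87 and 9.69 in PlGFCM, 9.61 and 9.76 in IL6+ConCM, and 9.37 and 9.21 in ConCM. Its call was lost on leaving out any of the 4 arrays of PlGFCM and ConCM, with the replicate number as a block, with array medians subtracted, with probe sets averaged by gene and with no intensity trend, and it held in 5 of 13 alternatives. Jak2, the kinase bound to the beta chain, had log2 levels of 11.18 and 11.10 in PlGFCM, 10.89 and 11.06 in IL6+ConCM, and 10.82 and 10.80 in ConCM, and its log2 difference of 0.33 ± 0.07 between PlGFCM and ConCM did not pass (limma adjusted p = 0.0791). Stat5a had 9.84 and 9.97 in PlGFCM, 9.46 and 9.66 in IL6+ConCM, and 9.48 and 9.56 in ConCM, a log2 difference of 0.39 ± 0.08 (limma adjusted p = 0.0908). The PlGFCM arrays were thus the highest for both genes, on the opposite side from Akr1c18. Pim2, of the same list, lay on the side of Akr1c18. It was at -0.24 between PlGFCM and ConCM (limma adjusted p = 0.276) and -0.20 between IL6+ConCM and ConCM (limma adjusted p = 0.693). Its groups did not overlap in either comparison, as those of 38.2% and 34.1% of all genes did not. Between PlGFCM and ConCM, 12 of the 17 differences were positive and 5 negative, where 10291 of all 22180 genes were positive and 11889 negative. The list's median log2 difference was 0.11 for PlGFCM minus ConCM and 0.02 for IL6+ConCM minus ConCM. Over all genes both medians were -0.01.

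A further list held 21 measured transcription factors and regulators that act on Il3 and Csf2 or on T cell cytokine genes more broadly. Of these, 1 rose between PlGFCM and ConCM, where 0.352% of all genes did, and none passed in the other comparisons. An unadjusted p under 0.05 was found for 6 between PlGFCM and ConCM, 4 between IL6+ConCM and ConCM and 3 between PlGFCM and IL6+ConCM. The shares of all genes at that threshold were 8.74%, 5.62% and 4.37%. The gene that rose was Fosl2, a subunit of AP-1, with log2 levels of 9.54 and 9.38 in PlGFCM, 9.31 and 9.38 in IL6+ConCM, and 8.97 and 8.85 in ConCM. Its log2 difference was 0.55 ± 0.08 (SE; limma adjusted p = 0.0190) for PlGFCM minus ConCM, lost without PlGFCM replicate 1, PlGFCM replicate 2 or ConCM replicate 2 and with no intensity trend, and 0.43 ± 0.08 for IL6+ConCM minus ConCM (limma adjusted p = 0.101). Tbx21, the Th1 factor T-bet, was at -0.25 and -0.52 in these comparisons (limma adjusted p = 0.592 and 0.230). Irf4, a factor of T cell activation, was at 0.15 (0.07 without PlGFCM replicate 2) and -0.12 and, for PlGFCM minus IL6+ConCM, at 0.27 (limma adjusted p = 0.468). The list's median was 0.12 for PlGFCM minus ConCM and 0.04 for IL6+ConCM minus ConCM, beside -0.01 in both over all genes.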

How the data were processed

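Total RNA of 6 samples, 2 each of PlGFCM, IL6+ConCM and ConCM, was measured on Affymetrix whole-transcript arrays. The authors deposited log2 levels per probe set. The submitters' processing notes name Transcriptome Analysis Console. The version, genome build and kind of normalization are not given in these sources, and that the scale is log2 was judged from the range of values. Arrays give no read depth, so their number limits the precision.

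Of 41345 probe sets, 23521 have 1 gene symbol in the platform annotation, 1814 have several and were left out, and 16010 are unnamed here. The gene IDs of 23328 were found in the RefSeq table, which changed 0 symbols. The brightest probe set per gene gave 22180 genes, and none was dropped for a low level.

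All genes were fitted with limma 3.58.1 in R 4.3.3 (lmFit, eBayes with an intensity trend, 3 residual degrees of freedom), with Benjamini-Hochberg adjustment over all genes. A gene passed, rose or fell at an adjusted p under 0.05. No exact permutation test was run, since for 2 against 2 arrays its smallest two-sided p is 1 in 3. The fit was tested on simulated data. Alternatives were 2 normalizations, a filter on low levels, the mean of all probe sets, no intensity trend, the compared groups alone, a replicate block and each array left out.

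The members and lists were chosen with earlier results of these data known. Named were the 5 members, all measured genes of the IL-3 and Akr1c lists, in other lists the genes that passed and the 2 with the smallest p beyond these, set marker genes, and the 5 genes nearest in profile to any member that spanned at least 1 log2 unit. Predicted models were counted but not named. Fcer2a, Eomes, Prf1, Cd8b1, Nkg7, Pim2, Cd14, Adgre1, Mpeg1, Cd79a, Cd79b, Pax5 and Blk were named after their values were seen. Xist was also named in this way.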

Additional observations from a re-analysis of the deposited data

How the results depend on the processing

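Akr1c18 kept its sign and stayed within 1 SD of its value in all 13 alternatives of each comparison. Alternatives that change only the fit leave its difference as it was. Groups that do not overlap keep their sign when 1 array is left out. Much of this outcome was thus fixed beforehand, and it is a description that supports nothing. Leaving out 1 array gave -1.41 to -1.09 for PlGFCM minus ConCM, -0.61 to -0.38 for IL6+ConCM minus ConCM and -0.92 to -0.60 for PlGFCM minus IL6+ConCM. Il3, Csf2, Csf1 and Csf2rb passed in none of the 13 alternatives of any comparison, with limma adjusted p from 0.530 to 1.000. Their signs turned only on leaving out an array: for IL6+ConCM minus ConCM the ranges were -0.27 to 0.29 (Il3), -0.28 to 0.0877 (Csf2), -0.0130 to 0.25 (Csf1) and -0.11 to 0.34 (Csf2rb), for PlGFCM minus ConCM -0.14 to 0.0912 (Csf2), and for PlGFCM minus IL6+ConCM -0.15 to 0.41 (Il3), -0.11 to 0.26 (Csf2) and -0.12 to 0.32 (Csf2rb). The count of all genes called moved more. It was 96 between PlGFCM and ConCM, 12 to 107 on leaving out 1 array, 12 of these without PlGFCM replicate 2, 6 without an intensity trend and 62 with a replicate block. Between IL6+ConCM and ConCM it was 25, 2 to 41 on leaving out 1 array, 53 with genes at or above the 25th percentile, which tests fewer genes, 1 without an intensity trend, 12 with the compared groups alone and 16 with a replicate block. Between PlGFCM and IL6+ConCM it was 7, 0 to 5 on leaving out 1 array, and 0 by limma without an intensity trend, where the main fit had 969 genes at an unadjusted p under 0.05. The cause of these moves was not tested. The labels do not say that replicate numbers pair samples, and deviations of same-numbered samples correlated at -0.0386 to 0.111 between groups, so the numbers were not taken as pairs.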

Other observations

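Of 21 measured cytokine and chemokine genes, 3 rose between PlGFCM and ConCM, where 0.352% of all genes did, and 0 passed by limma in the other comparisons. An unadjusted p under 0.05 was found for 8 (PlGFCM minus ConCM), 8 (IL6+ConCM minus ConCM) and 7 (PlGFCM minus IL6+ConCM), where 8.74%, 5.62% and 4.37% of all genes had one. The list had a median log2 difference of 0.18 for PlGFCM minus ConCM and -0.02 for IL6+ConCM minus ConCM, beside -0.01 in both over all genes. The 3 were Il10 with log2 levels of 7.12 and 7.14 in PlGFCM against 5.96 and 6.01 in ConCM, Il17f with 7.80 and 7.64 against 6.67 and 6.69, and the chemokine gene Ccl3 with 8.43 and 9.36 against 7.73 and 7.32. None of the 3 calls held without PlGFCM replicate 2, without ConCM replicate 2 or with no intensity trend. Il10 and Il17f also did not pass without PlGFCM replicate 1, Il17f and Ccl3 without ConCM replicate 1, and Ccl3 with a replicate block or quantile normalization. The difference of Ccl3 was 1.37, and 0.91 without PlGFCM replicate 2. Il6 had log2 levels of 5.86 and 5.74 in PlGFCM, 4.84 and 4.88 in IL6+ConCM, and 5.22 and 5.65 in ConCM, and did not pass between PlGFCM and IL6+ConCM (log2 difference 0.94, limma adjusted p = 0.107). Il24 differed by 0.50 between PlGFCM and ConCM (limma adjusted p = 0.188).

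Of 14 measured genes of steroid metabolism and steroid receptors, 0 passed in any comparison by limma. An unadjusted p under 0.05 was found for 1 gene in each comparison that includes PlGFCM and 0 between IL6+ConCM and ConCM. Of all genes, 8.74% had one for PlGFCM minus ConCM, 5.62% for IL6+ConCM minus ConCM and 4.37% for PlGFCM minus IL6+ConCM. Cyp11a1, which starts steroid synthesis from cholesterol, had log2 levels of 6.17 and 6.14 in PlGFCM, 5.73 and 5.79 in IL6+ConCM, and 5.81 and 5.70 in ConCM, a log2 difference of 0.39 ± 0.12 (SE) between PlGFCM and ConCM (limma adjusted p = 0.279). Its PlGFCM arrays were the highest, where those of Akr1c18 were the lowest. Hsd3b6 differed by -0.14 between PlGFCM and ConCM and by -0.25 between IL6+ConCM and ConCM. Of 8 measured genes of other colony stimulating factors and their receptors none passed. An unadjusted p under 0.05 was found for 1, 1 and 2 for PlGFCM minus ConCM, IL6+ConCM minus ConCM and PlGFCM minus IL6+ConCM. The shares of all genes were again 8.74%, 5.62% and 4.37%. Csf3, the gene of G-CSF, was at -0.35 between IL6+ConCM and ConCM (limma adjusted p = 0.759). Kitl, stem cell factor, was at -0.42 between PlGFCM and ConCM (limma adjusted p = 0.500), or -0.22 without PlGFCM replicate 2.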
